A study of Mus musculus with 3 samples.

Results

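The muscle array of swimming mice fed Chlorella was set against both arrays of mice on normal food, and the genes on which it stood apart from both in one direction were described. Each probe had 2 log2 ratios, Chlorella against normal food with swimming and Chlorella against normal food without swimming. Where both had one sign, the one nearer 0 was taken and is called the smaller ratio below. Of 41169 probes, 22544 were well above background on all 3 arrays, and 15821 of these had both ratios of one sign. Counted by gene, with the brightest probe standing for each, 10715 of 15269 measured genes lay outside the 2 normal-food arrays, and 189 did so by at least 2-fold. At any size the nonswimming array likewise lay outside the 2 swimming arrays for 9780 genes, so the first count is not particular to Chlorella. The measured genes were those left of 27665 on the array.

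Total RNA came from muscle of male mice, 6 weeks old, that were kept for 14 days in 1 of 3 ways: on normal food without swimming, on normal food with swimming, or with swimming on food holding 0.5% powder of Chlorella, a unicellular green alga. The RNA of 10 mice was pooled for each group and hybridised to 1 single-colour whole-genome array, so the pool hides differences between mice and each group has 1 sample. The muscle taken, the strain and the time of day are not given in the sources used here. No nonswimming group on Chlorella food is among the 3, so the food was compared only in mice that also swam.

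Muscle responds to stress hormones and to contraction with rapid, short-lived waves of transcription. Glucocorticoids act through a nuclear receptor that binds DNA and switches on genes of protein breakdown, fuel use and growth arrest, and metallothioneins, small proteins that bind zinc, are among its targets. Contraction, cAMP and growth signals act through CREB, serum response factor and AP-1 on immediate-early genes. A muscle sample also holds vessels, fat, connective tissue, blood cells and resident macrophages. In such bulk RNA, fewer cells of a type and less RNA per cell cannot be told apart.

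With 1 array per group no test between groups was possible, so no difference below has a replicate check, and array and group cannot be told apart. Between 23449 and 24860 probes were well above background per array, and saturation was absent. Each array's 75th percentile of processed signal was between 237.8 and 295.0 intensity units and served to scale it. Signals are given below as scaled signals, brought to a common 75th percentile of 271.7 intensity units, in the order nonswimming, swimming and Chlorella. The ± value after a ratio comes from the scanner software's error model, with a median of 0.20, and holds nothing of the spread between mice or pools. Scaled signals compare 1 gene between arrays and do not compare genes with each other. The muscle label fits the markers: all 18 defining skeletal muscle genes, such as those for creatine kinase (Ckm) and skeletal actin (Acta1), were well above background on every array.

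At least 2-fold above both normal-food arrays were 90 genes, 0.589% of the 15269 measured, and at least 2-fold below both were 99 genes, 0.648%. At any size, 42.3% of measured genes lay above both, 27.8% below both and 29.8% between them. The list counts below are to be read beside these shares. That split moved with the scaling, to 33.9% above and 35.1% below with cyclic loess. The nonswimming array, set in the same way against the 2 swimming arrays, stood at least 2-fold above both for 49 genes (0.321%) and below both for 124 (0.812%). With another background correction, normexp with 50 intensity units added to every spot, 28 of the same 90 and 14 of the same 99 were at least 2-fold away. The added units pull ratios of dim spots toward 0 by construction, and the normexp value is given below for called genes that it takes under 2-fold. The nonswimming and Chlorella sets share the same arrays, so these counts are not independent. A gene had to clear the line on both sides, which is the stricter demand: 727 genes (4.76%) were at least 2-fold below the swimming array and 218 (1.43%) below the nonswimming one, while 190 (1.24%) and 313 (2.05%) were above them.

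**Figure D1:**
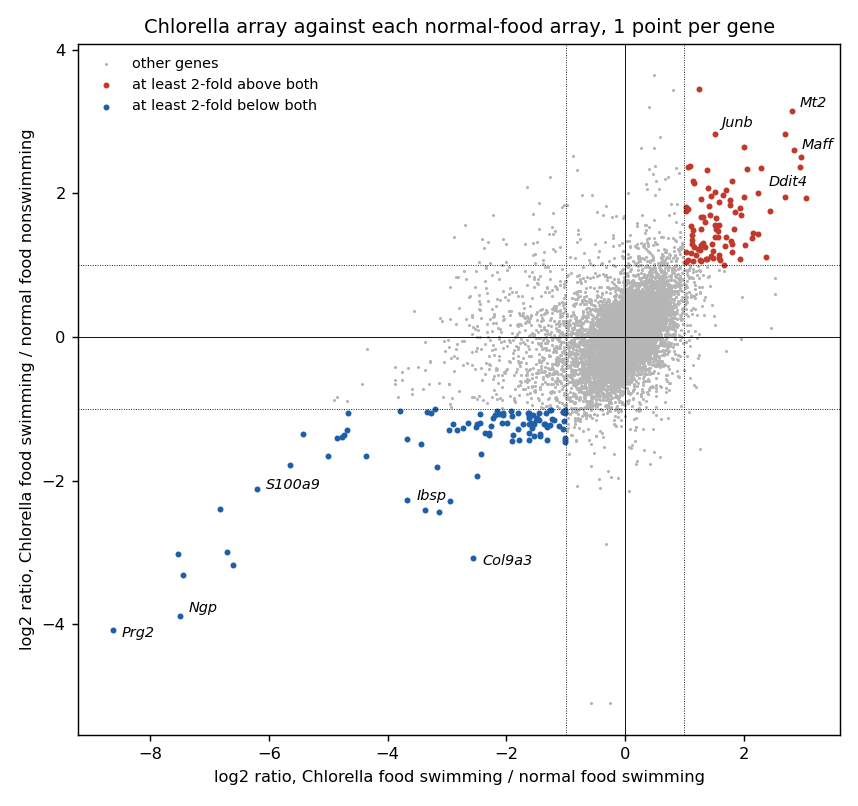
Each point is 1 of 15269 genes, with its log2 ratio of Chlorella to normal food with swimming on the x axis and to normal food without swimming on the y axis. The 90 red genes lie past 1 on both axes and near the diagonal, while the 99 blue genes past -1 on both reach -8.63 on the x axis and -4.09 on the y axis.

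The higher and the lower genes differed in where the normal-food arrays stood. Among the 90 higher genes the normal-food arrays were within 2-fold of each other for 83. The swimming array was above the nonswimming one for 46 of the 90. The median log2 ratio of the 90 was 1.51 against swimming and 1.53 against nonswimming. Among the 99 lower genes the swimming array was above the nonswimming one for 87, by at least 2-fold for 40, and below it by that size for none. Their medians were -2.05 against swimming and -1.25 against nonswimming. Many lower genes thus lay in the order swimming, nonswimming, Chlorella, and for most of them the ratio to the nonswimming array is the one that decided the call. At the line itself, Fam107a was just inside at 1.01 and Tenm2 just outside at 0.996, while Angpt4 was just inside at -1.01 and Ncf1 just outside at -0.99.

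The largest smaller ratio among all measured genes was that of Mt2, a metallothionein. Its scaled signals were 2539 without swimming, 3199 with swimming and 22511 with Chlorella, and the smaller ratio was 2.82 ± 0.20, which is 7.04-fold. Mt1, the second ubiquitous metallothionein, stood at 1695, 2621 and 10568, with a smaller ratio of 2.01 ± 0.20. In both genes the Chlorella array stood above both normal-food arrays, and swimming was above nonswimming. The other Mt1 probe had the same order at 92.5, 409 and 989, with a smaller ratio of 1.28. The rest of the zinc genes did not share this: of 15 measured metallothionein and zinc-handling genes, 2 were at least 2-fold above both and none below, and the median smaller ratio was 0.00. Mt3, a metallothionein known from the brain, had a smaller ratio of -0.01 and Mt4 0.09. Slc30a1, the zinc exporter of the cell surface and itself a metal-induced gene, lay between the normal-food arrays at 283, 257 and 278. Mtf1, which encodes the metal-responsive transcription factor, was nearly level on all 3 arrays at 344, 326 and 345. Slc30a2, a zinc transporter of vesicles, was the next highest at 0.46.

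The promoters of these 2 genes are shown because both stood above both normal-food arrays and are textbook cases of metal-responsive promoters. Given are the 250 bases before the start of the gene in the RefSeq annotation of GRCm38.p6, 5′ to 3′ on the gene's strand, with each match to a core metal response element (TGCACNC or TGCGCNC, on either strand) in capitals. The Mt2 window is chr8:94172368-94172617 and the Mt1 window chr8:94178839-94179088, both on the plus strand.
Mt2: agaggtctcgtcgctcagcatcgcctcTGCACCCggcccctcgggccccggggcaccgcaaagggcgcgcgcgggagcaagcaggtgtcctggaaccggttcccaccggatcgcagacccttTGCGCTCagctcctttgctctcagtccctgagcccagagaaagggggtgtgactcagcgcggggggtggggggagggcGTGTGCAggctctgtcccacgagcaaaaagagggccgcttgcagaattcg
Mt1: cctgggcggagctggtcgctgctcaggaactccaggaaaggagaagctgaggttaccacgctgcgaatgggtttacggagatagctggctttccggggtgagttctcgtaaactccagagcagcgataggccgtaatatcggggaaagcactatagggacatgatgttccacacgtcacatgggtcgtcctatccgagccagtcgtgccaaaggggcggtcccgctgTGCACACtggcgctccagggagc
The Mt2 window held 3 matches, the nearest of which ended 43 bases before the start, and the Mt1 window held 1, ending 16 bases before it. These counts hold for the windows alone, since bases past the RefSeq start were not searched. All 32851 promoters in the table were searched over the same 250 bases before the start. Of these, 21.4% held such a match, against 36.7% of the 79 promoters of the higher genes and 20.2% of the 84 of the lower genes. Among promoters of measured genes the share was 29.1%. A match of these letters is a description of the sequence and no evidence of binding.

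Genes known to respond to glucocorticoids were the list with the most members called above. Of 37 measured, 9 were at least 2-fold above both arrays and none below. Over all measured genes the shares were 0.589% and 0.648%. The 9 include Mt1 and Mt2, the metallothioneins already given above. At any size 27 were above both and 2 below, against 42.3% and 27.8% over all measured genes. The median smaller ratio of the list was 0.45 against 0.00 over all genes measured. This list was drawn up with earlier results of these data known. Ddit4, also called REDD1, which inhibits mTORC1, stood at 10054, 10478 and 51460.4, a smaller ratio of 2.30 ± 0.20. Cdkn1a, which encodes the cell cycle inhibitor p21, stood at 145, 133 and 481, with 1.73 ± 0.20. For both, the 2 normal-food arrays were nearly level. Arrdc2, an arrestin-domain gene, was at 299, 186 and 1009.6 (1.75 ± 0.20). The transcription factor Cebpd was at 5619, 4165 and 12431 (1.15 ± 0.20), Errfi1, a feedback inhibitor of the EGF receptor, at 1.06, and Nfkbia, which encodes the NF-kB inhibitor IkBα, at 1.03. With normexp Errfi1 had 0.98 and Nfkbia 0.95.

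Several of the best known glucocorticoid targets were above both arrays by less than 2-fold. Fkbp5, a co-chaperone of the receptor, stood at 236, 171 and 388, a smaller ratio of 0.72. Tsc22d3, also called GILZ, had 0.44, Sgk1, a kinase, 0.57 and Klf15, a regulator of amino acid breakdown, 0.72. Each of these 4 was lower on the swimming than on the nonswimming array, so the ratio to the nonswimming array was the smaller one. Not every member lay above. Fbxo32, the ubiquitin ligase atrogin-1, stood at 3556, 1662 and 3385, level with the nonswimming array. Its partner in muscle atrophy, Trim63 (MuRF1), had a smaller ratio of 0.67, and Foxo1, the transcription factor over both, 0.83. In the atrophy and FoxO list as a whole, 2 of 25 measured genes were called above, Ddit4 and Cdkn1a, and none below. Lcn2 and Cdo1, also in the glucocorticoid list, were below the swimming array and above the nonswimming one.

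A full glucocorticoid response element (GNACA, 3 bases of any kind, TGTNC) was found in 4 of the 79 promoters of higher genes, 5.06%, and in none of the 84 of lower genes. Over all promoters in the table the share was 0.387%, and over those of measured genes 0.288%. The 4 promoters belong to Mt1, Slc10a6 (smaller ratio 1.08, or 0.79 with normexp) and Fam107a (1.01, or 0.54 with normexp), the last with 2 overlapping windows, so 3 genes carry the match. Ddit4 and Cdkn1a had no match in this window, which says nothing of sites further away.

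Immediate-early genes were called in part. Of 36 measured, 7 were at least 2-fold above both arrays and none below, against 0.589% and 0.648% of all measured genes. At any size 24 were above both and 7 below, against 42.3% and 27.8%, with a median smaller ratio of 0.33. Maff, a small Maf protein that dimerises with other bZIP factors, stood at 412, 345 and 2489, a smaller ratio of 2.60 ± 0.20. Csrnp1, a nuclear protein of the early response, stood at 497, 449 and 1727 (1.80 ± 0.20). These 2 genes were nearly level on the normal-food arrays. Junb, an AP-1 subunit, stood at 3889.6, 9656 and 27520.4, a smaller ratio of 1.51 ± 0.20, so that swimming was above nonswimming and Chlorella above both. Zfp36, which encodes the mRNA-destabilising protein tristetraprolin, had the same order at 343, 849 and 1765 (1.06). Arc had a smaller ratio of 1.39, Rhob, a small GTPase, 1.31 and Fosl2, an AP-1 subunit, 1.22. With normexp 5 of the 7 stayed at least 2-fold above both, while Zfp36 had 0.99 and Fosl2 0.82.

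The classic first genes of this response were not among those called. Fos stood at 467, 565 and 387, below both normal-food arrays, with a smaller ratio of -0.27. Egr1 stood at 974, 2532 and 1249.8, between them, and Jun had a smaller ratio of 0.30. Btg1 was the lowest member of the list at -0.48. So JunB, Maff and Fosl2 were higher on the Chlorella array in a list where Fos was lower and Egr1 was not outside the normal-food range.

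CREB targets and the Nr4a nuclear receptors had 2 of 18 measured genes at least 2-fold above both and none below. Over all measured genes the shares were 0.589% and 0.648%. At any size 12 of the 18 were above both and 2 below, against 42.3% and 27.8%, with a median smaller ratio of 0.28. Sik1, a kinase that feeds back on CREB signalling, stood at 98.8, 56.3 and 267, a smaller ratio of 1.44 ± 0.21. Nr4a2 stood at 141, 82.9 and 368 (1.38 ± 0.20). Both were lower with swimming than without, and highest with Chlorella, and with normexp Sik1 had 0.87 and Nr4a2 1.09. Nr4a1, induced by exercise in muscle, stood at 30604, 25370.1 and 58015 with a smaller ratio of 0.92, under the line. Slc25a25, a mitochondrial ATP-Mg carrier, stood at 7065, 2160.0 and 12433, so that 2.52 separated it from the swimming array and 0.82 from the nonswimming one. Nr4a3 was not well above background on any array. Mss51, a muscle mitochondrial protein outside the lists, had a smaller ratio of 1.28, from 4342, 2583 and 10552.

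The promoters of Junb and Nr4a2 are shown as called genes that hold the core of the cAMP response element, TGACG on either strand, which is in capitals below. The windows are chr8:84978749-84978998 for Junb and chr2:57124004-57124253 for Nr4a2, both on the minus strand of GRCm38.p6 and again the 250 bases before the RefSeq start.
Junb: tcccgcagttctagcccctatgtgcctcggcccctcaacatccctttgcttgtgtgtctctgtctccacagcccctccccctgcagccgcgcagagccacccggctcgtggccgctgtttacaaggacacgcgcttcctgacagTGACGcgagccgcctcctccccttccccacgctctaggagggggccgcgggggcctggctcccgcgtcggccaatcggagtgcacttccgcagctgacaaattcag
Nr4a2: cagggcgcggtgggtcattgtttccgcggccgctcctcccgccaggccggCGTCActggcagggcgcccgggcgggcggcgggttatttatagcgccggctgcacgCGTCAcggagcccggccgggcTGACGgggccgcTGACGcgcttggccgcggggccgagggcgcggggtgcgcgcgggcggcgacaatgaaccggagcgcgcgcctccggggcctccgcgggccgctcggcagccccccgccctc
Junb held 1 match, ending 101 bases before the start, and Nr4a2 held 4. This short motif is common: 17.8% of all promoters in the table and 25.2% of those of measured genes held it. Among promoters of the higher genes the share was 26.6%, close to that of measured genes, and among those of the lower genes 8.33%. In the immediate-early list it was 62.2% of 37 promoters, whatever the ratio of the gene.

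Of 21 measured clock genes, 1 was called above and none below. It was Ciart, a repressor of the clock, at 73.8, 51.0 and 154 (1.07 ± 0.21, or 0.69 with normexp). Per1, which glucocorticoids and cAMP also induce, stood at 1131, 425 and 1666. Its log2 ratio was 1.97 to the swimming array and 0.56 to the nonswimming one. Per2, Per3, Dbp and Nr1d1, which oscillate strongly in muscle, all lay between the normal-food arrays, and Arntl did too. The labels do not give the time of day, so its part was not tested.

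Other genes called above lay outside the lists and are named here after their values were seen. Arl4d, a small GTPase, stood at 373, 453 and 1895, a smaller ratio of 2.06 ± 0.20. Pnmt, the enzyme that makes adrenaline from noradrenaline, stood at 57.6, 63.3 and 215 (1.77), and Hes1, a Notch target, had 1.30. Gadd45g, a stress sensor of the same family as Gadd45b (1.16), stood at 25741, 18422 and 54967 with 1.09. Depp1, a FoxO target, had 1.06, Sphk1, sphingosine kinase, 1.17, and Sox4 1.15. With normexp Sphk1 had 0.98 and Sox4 0.77.

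Among the 12 furthest above both arrays, 6 were dim on the normal-food arrays. Il12rb1, a subunit of the interleukin 12 receptor, stood at 8.49, 9.29 and 60.2, a smaller ratio of 2.69 ± 0.28. Cfap100, a cilium protein, stood at 12.8, 8.59 and 66.2 (2.37), and Zic1, a developmental transcription factor, at 29.1, 13.5 and 111 (1.93). Mroh8, E230001N04Rik and the olfactory receptor gene Olfr536 also had a normal-food signal under 13. The lowest signals well above background were 6.45, 5.78 and 6.26 intensity units on the 3 arrays, so the size of these ratios is poorly fixed. With normexp, Il12rb1 had 0.92, Cfap100 0.94, Zic1 0.96, E230001N04Rik 0.70, Olfr536 0.59 and Mroh8 0.58, all under 2-fold. The plot of signals of the 12 genes furthest on each side shows this split between dim and bright genes. Of the 90 higher genes, 50 had a scaled signal under 50 on at least 1 array.

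**Figure D2:**
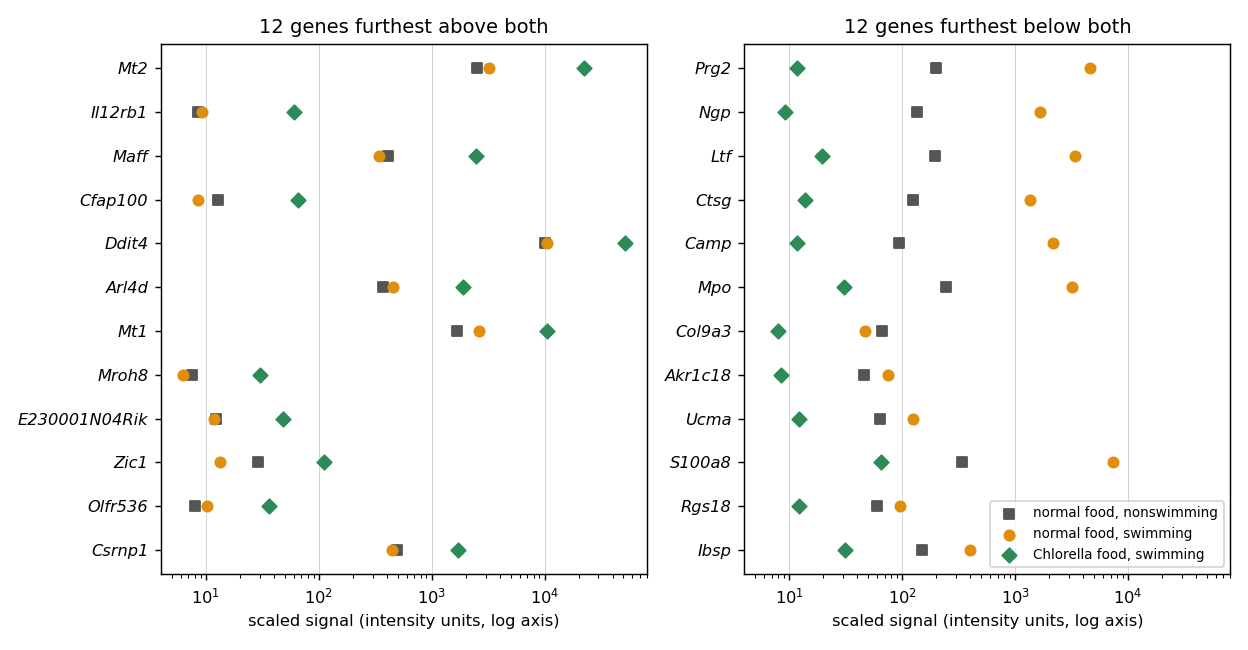
Scaled signal on a log axis for the 12 named genes furthest above both normal-food arrays (left) and the 12 furthest below both (right), with 1 symbol per array. On the left the grey and orange normal-food symbols lie nearer to each other than to Chlorella, from 2539 and 3199 for Mt2 to 29.1 and 13.5 for Zic1, while on the right they are far apart for granule genes, such as 199 and 4640.3 for Prg2, and close for others, such as 67.0 and 46.8 for Col9a3, with Chlorella below both.

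The genes furthest below both arrays were granule genes of granulocytes. Prg2, the major basic protein of eosinophils, stood at 199, 4640.3 and 11.7, a smaller ratio of -4.09 ± 0.27. Ngp, a neutrophil granule protein, stood at 136, 1669 and 9.18 (-3.88 ± 0.30), and Ltf, lactoferrin, at 195, 3422 and 19.6 (-3.31 ± 0.24). The nonswimming array was far below the swimming array for each of these, and the Chlorella array was lower again. Ctsg, cathepsin G, had a smaller ratio of -3.17, Camp, the cathelicidin peptide, -3.02 and Mpo, myeloperoxidase, -2.99. S100a8 and S100a9, which together form calprotectin, had -2.39 and -2.11, with S100a9 at 3327, 56256 and 769. With normexp the smaller ratio was -1.89 for Prg2, -1.77 for Mpo, -1.63 for Ngp, -1.56 for Ltf and -1.005 for Camp, all still at least 2-fold below both.

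Among the 16 neutrophil genes measured, 9 lay 2-fold or more below both arrays and none above, and 15 were below both at any size. The median smaller ratio was -1.54 (-0.90 with normexp), the median ratio to the swimming array was -5.27, and the summed scaled signal was 12857, 90573 and 6713. S100a9 alone made up most of the sum on the swimming array, but not on the nonswimming or the Chlorella array. The list holds 31 genes, of which 29 were on the array. Defining members such as Elane, Ms4a3 and Mmp8 were well above background on both normal-food arrays and not on the Chlorella array, with at least 2-fold between them. Prtn3, Fpr1 and Cxcr2 were above background on the swimming array alone. Lcn2 was the member not below both, at 14.8, 190.0 and 26.3.

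The S100a8 promoter is shown as that of a strongly lower gene of this group. Its TATA box (TATAAA) is in capitals in the 250 bases before the RefSeq start, chr3:90668821-90669070 on the plus strand of GRCm38.p6.
S100a8: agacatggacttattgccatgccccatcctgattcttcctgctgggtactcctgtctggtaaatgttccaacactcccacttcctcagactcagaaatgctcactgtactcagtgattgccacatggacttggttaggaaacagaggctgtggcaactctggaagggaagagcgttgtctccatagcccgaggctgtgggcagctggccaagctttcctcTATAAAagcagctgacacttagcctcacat
The match ended 24 bases before the start. TATAAA was found in 16.7% of promoters of the lower genes, 7.59% of those of the higher genes, 12.4% of all promoters in the table and 7.46% of those of measured genes. The GC box (GGGCGG) was in 22.6%, 32.9%, 32.7% and 55.2% of the same 4 sets.

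Eosinophil and mast cell genes had 4 of 11 measured members called below and none above, with a median smaller ratio of -0.63 and summed signals of 2152, 6816 and 1047. The 2 cell types differed in how the arrays were ordered. The eosinophil genes Prg2 and Ear1, an eosinophil ribonuclease at 61.5, 626 and 19.5, were highest with swimming. The mast cell proteases were close to each other on the normal-food arrays: Cpa3, carboxypeptidase A3, stood at 233, 239 and 104 (-1.16 ± 0.21), and Cma1, a chymase, at 595, 453 and 225 (-1.01 ± 0.20). With normexp 1 of the 4, Prg2, stayed at least 2-fold below, Cpa3 had -0.79, Cma1 -0.82 and Ear1 -0.55, and the median of the list was -0.17. With a signal of at least 50 on all arrays it was -0.87 over 5 genes. Of the defining eosinophil genes, Epx, the eosinophil peroxidase, Prg3 and Ccr3 were well above background on both normal-food arrays and not with Chlorella. None of them had a bound of at least 2-fold, and Ear6 was the only member of the list that did. Mcpt4, another chymase, had -0.87 and the tryptase Tpsb2 -0.63. Kit, the stem cell factor receptor of mast cells, lay between the normal-food arrays at 43.7, 63.1 and 52.0.

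Macrophage and dendritic cell genes were below both arrays nearly throughout, by smaller amounts. Of 39 measured, 37 were below both and none above, against 27.8% below both over all genes, and 4 were called at 2-fold. The median smaller ratio was -0.60 and the summed signal 38388, 50415 and 21126. With normexp 32 of 39 were below both and 2 above, and under the other scalings 36 to 38 were below both. Ccr2, the chemokine receptor of inflammatory monocytes, stood at 65.1, 88.9 and 23.9 (-1.45 ± 0.24). Itgb2, the leukocyte integrin chain CD18, stood at 134, 272 and 57.1 (-1.23), and Lyz1, a lysozyme, at 2789, 4126 and 1332 (-1.07). With normexp Ccr2 had -0.47 and Itgb2 -0.63, while Lyz1 kept -1.09. The last of the 4 was Fcgr1, a high-affinity IgG receptor, at 125, 124 and 60.3 (-1.04, or -0.51 with normexp). The lysozyme genes Lyz1 and Lyz2 are close copies, so their probes may read each other.

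Most tissue macrophage markers were nearly level on the normal-food arrays and lower with Chlorella. Adgre1, the antigen F4/80, stood at 402, 359 and 184, a smaller ratio of -0.97. Cd68 stood at 166, 172 and 86.4 (-0.94), and Csf1r, the receptor on which macrophages depend, at 599, 571 and 387 (-0.56). These values differ from the granulocyte pattern, in which the swimming array stood highest by far. C1qa, C1qb and C1qc, the chains of C1q made by macrophages, had -0.53, -0.48 and -0.61. Cd14 and Cybb were the members not below both arrays.

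All 10 measured MHC class II genes were below both arrays, also with median centring, quantile normalization, cyclic loess and normexp, while 9 of 10 were in the authors' deposited values. None was at least 2-fold below. Their median smaller ratio was -0.76. H2-Ab1, a class II beta chain, stood at 2519.8, 2412 and 1341 (-0.85), H2-Aa, its alpha chain partner, at 455, 488 and 251 (-0.86), and Cd74, the invariant chain, at 1805, 2056 and 1240.0 (-0.54). H2-Ea had -0.98, just short of the line. Ciita, the transactivator of class II genes, was well above background on both normal-food arrays and not on the Chlorella array. H2-Eb2 went the other way and was well above background with Chlorella alone. MHC class I genes were closer to 0, with 16 of 23 below both, 2 above and a median of -0.24, and several are close copies whose probes may share targets.

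Complement, interferon and chemokine genes were below both arrays in greater part than all genes were. Complement had 17 of 23 below both and 2 above, with a median of -0.28. C4b stood at 593, 479 and 246 (-0.96), Fcna, ficolin A, at 177, 272 and 91.7 (-0.95), and Cfb, factor B, at 1367, 1419 and 790.1 (-0.79). None of these passed 2-fold. Interferon-stimulated genes had 29 of 39 below both with a median of -0.16, led by Oas1a at -0.92 and Irf1 at -0.70.

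Of 54 measured chemokine, cytokine and receptor genes, 6 were called below and 1, Il12rb1, above, but none on either side with normexp or with a signal of at least 50 on all arrays. Those called below include Ppbp, a platelet chemokine at 49.2, 829 and 19.2 (-1.36 ± 0.25), the receptors Ccr2 and Cxcr3, the monocyte chemokine Ccl7 and the B cell chemokine Cxcl13. Cxcr3 and Cxcl13 were dim, both under 15 with Chlorella. With normexp Ccl7 had -0.32, Cxcl13 -0.14 and Cxcr3 -0.05. Csf3r, the receptor for the growth factor of neutrophils, was bounded. Ccl8, a monocyte chemokine, stood at 382, 249.9 and 140.5 (-0.83), while Cxcl12, the chemokine that holds cells in the marrow, lay between the normal-food arrays.

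Further leukocyte genes were called below outside the lists and are named after their values were seen. They include the kinases Btk (-1.37) and Fgr (-1.19), the phosphatase Ptpn6 (-1.21) and the surface proteins Cd48 (-1.09) and Cd53 (-1.05). The leukotriene receptor Ltb4r1 stood at 71.3, 229 and 30.7, and Rgs18, a regulator of G protein signalling in blood cells, at 59.8, 95.1 and 12.3 (-2.28 ± 0.27). All were highest on the swimming array and lowest with Chlorella. Akr1c18, a steroid dehydrogenase that breaks down progesterone, stood at 45.7, 74.3 and 8.42 (-2.44 ± 0.32). With normexp all of these were under 2-fold: Rgs18 had -0.66, Ptpn6 -0.61, Akr1c18 -0.56 and Ltb4r1 -0.46, and Cd48, Cd53, Fgr and Btk lay between -0.20 and -0.14. The part of leukocyte content in these values was not tested.

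Single genes of bone and cartilage were also far below both arrays. Of 22 measured bone genes 5 were called below and none above, and of 20 cartilage and tendon genes 4 were called below and none above. These counts fell to 1 and 1 with normexp, Ibsp and Col2a1, and to 2 and 1 with a signal of at least 50 on all arrays. Ibsp, bone sialoprotein, stood at 151, 397 and 31.3 (-2.27 ± 0.21), and Mepe, a matrix protein of osteocytes, at 77.2, 368 and 28.9 (-1.42 ± 0.22). Bglap, osteocalcin, stood at 815, 3735 and 405 (-1.01). With normexp Ibsp had -1.24, Bglap -0.91, Mmp13 -0.79, Mepe -0.52 and Mmp9 -0.41. Mmp13, a collagenase, stood at 177, 187 and 69.7 (-1.35), and Mmp9 had -1.30. Mmp9 also stands in the neutrophil list. The bone genes that connective tissue shares, Col1a1 and Col1a2, were not lower, with Col1a1 at 0.30 and Col1a2 between the normal-food arrays.

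In cartilage, Col2a1, type II collagen, stood at 886, 1529 and 285 (-1.64 ± 0.20), Ucma, a growth plate protein, at 64.3, 124 and 12.1 (-2.41), and Col9a3, a type IX collagen chain, at 67.0, 46.8 and 7.94 (-2.56 ± 0.34). Acan, aggrecan, had -1.11. With normexp Col2a1 had -1.49, while Ucma had -0.67, Col9a3 -0.54 and Acan -0.32. Cnmd, chondromodulin, and Hapln1, a link protein, were at least 4.87-fold and at least 4.46-fold lower by their bounds. The tendon members of the same list did not follow: Scx, Tnmd, Mkx, Fmod, Kera and Thbs4 lay between the normal-food arrays. The medians of the bone and the cartilage and tendon lists were -0.22 and -0.03, so a few marker genes carried these counts. Snorc, a cartilage proteoglycan outside the lists, stood at 157, 399 and 44.5 (-1.82).

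Red cell, platelet and B cell genes were mostly a matter of the swimming array. Of 14 measured erythroid genes 2 were called below, Slc4a1, the band 3 anion exchanger, at 124, 1352 and 47.0 (-1.41 ± 0.21), and Trim10 at 22.4, 232 and 9.06 (-1.30). With normexp they had -0.72 and -0.10, and the platelet gene Ppbp had -0.34. Alas2, the first enzyme of haem synthesis in red cells, stood at 714, 1966 and 472 with -0.60, and the globin gene Hba-a1 at 14547, 39963 and 11516 with -0.34. The erythroid genes Rhd, Hemgn, Klf1 and Kel and the gene listed as Eraf were bounded, lower with Chlorella. Of 11 platelet genes 1 was called, Ppbp, and of 12 B cell genes none, with medians of -0.49 and -0.08. The platelet median was -0.05 with normexp and -0.13 in the authors' deposited values. Cd79b, part of the B cell receptor, stood at 65.2, 714 and 48.8, so that -3.87 separated it from swimming and only -0.42 from nonswimming. Of 41 cell cycle genes none was called, although 26 were below both. Mki67 stood at 84.1, 832 and 98.4, back near the nonswimming level.

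**Figure D3:**
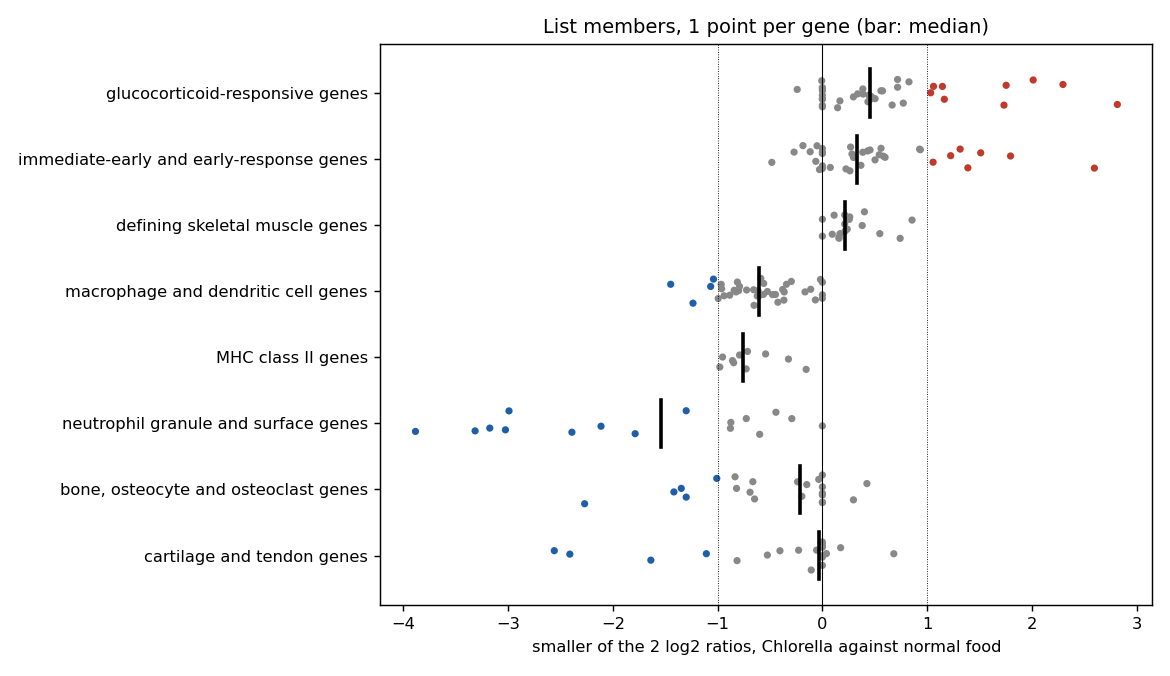
Smaller log2 ratio of each measured member of 8 gene lists on the x axis, 1 point per gene, in red at least 2-fold above both normal-food arrays, in blue at least 2-fold below both and in grey otherwise, with a bar at the median. Neutrophil members reach -3.88 and class II members stay between -0.98 and -0.16, while glucocorticoid-responsive members reach 2.82.

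Summed signals of the marker lists of other cell types ran as follows on the 3 arrays. B cell genes summed to 6907, 12161 and 7653, with Cd79a, Pax5 and Cd22 well above background with swimming alone. Erythroid genes summed to 43542, 75153 and 46430.1, platelet genes to 3469, 6203 and 3461, and T and NK cell genes to 2975, 3311 and 3035. For bone the sums were 79066, 73217 and 77303 and for cartilage and tendon 35226, 27326 and 27177, sums that the type I collagens and tendon genes dominate. Schwann cell genes summed to 8341, 8531 and 7632 and endothelial genes to 227782, 195978 and 243867. The erythroid list held 2 called genes and the platelet list 1, while the B cell, T and NK cell, Schwann cell and endothelial lists held none. The part of cell content in any of the calls was not tested.

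Epidermal and liver genes were below both arrays in greater part than above, without a call. Of 11 measured keratinocyte genes 7 were below both and none above, and Krt5, a basal keratin, stood at 269, 11.7 and 7.86, so that the swimming array was low as well. Liver plasma protein genes had 17 of 28 below both, 4 above and none called. Serpin protease inhibitors had 13 of 18 below both and 1 above, with a median of -0.30, led by Serpina3g, which leukocytes make, at 56.2, 148 and 29.7 (-0.92). Umod, uromodulin of the kidney, was the 1 called kidney gene of 16, at 35.6, 243 and 17.5 (-1.03, or -0.18 with normexp), while 12 of the 16 lay between the normal-food arrays.

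No defining muscle gene was called. Of the 18 defining skeletal muscle genes 16 were above both arrays and none below, with a median smaller ratio of 0.21, but with quantile normalization 9 were above and 2 below, and with cyclic loess 11 and 3. Ttn, the giant spring protein titin, stood at 7318, 8458 and 15308 (0.86), and Neb, nebulin, at 19922, 26630.4 and 44541 (0.74). Ryr1, the calcium release channel, stood at 40144, 42130.1 and 61605 (0.55). Other members were closer to 0, with Ckm at 0.21, Acta1 at 0.24 and Myh4, a fast myosin heavy chain, at 0.26. Mb, myoglobin, and Casq1, calsequestrin, lay between the normal-food arrays, with Mb at 180986, 87723 and 137307. Fast-fibre contractile genes had 18 of 22 above both and none below, but 5 and 5 with quantile normalization and 8 and 5 with cyclic loess, so their direction depends on the scaling.

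Energy genes showed no call either. Oxidative phosphorylation genes had 26 of 42 above both and 2 below (16 and 8 with quantile normalization, 18 and 8 with cyclic loess), with a median of 0.10. Fatty acid oxidation genes had 20 of 30 above and 4 below, but 12 and 10 with quantile normalization. Ribosomal protein genes had 29 of 54 above and 8 below, and turned to 3 and 16 with quantile normalization. Myogenic factors and regeneration genes kept their order under every scaling, with 19 of 25 above and 1 below, a median of 0.25 and no call.

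Stress and detoxification lists added little beyond genes already given. Integrated stress response genes had 1 of 25 called, Ddit4, with 10 above both and 6 below, and the hypoxia list also had Ddit4 alone. Heat shock proteins and co-chaperones had 16 of 26 above both and 4 below, and none was called. Antioxidant and glutathione enzymes had 12 of 36 above and 10 below, but 6 and 15 with quantile normalization, and none was called. Cytochrome P450 genes had 4 of 21 above and 12 below. Of 30 measured Hox, Zic and other positional genes 1 was called, Zic1, which is also the 1 called gene of the brown fat list.

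Fat genes lay between the normal-food arrays in greater part than other genes. Of 29 measured genes of lipogenesis and cholesterol synthesis 19 were between them, against 29.8% of all genes, and none was called. Fasn, fatty acid synthase, stood at 15343, 100015 and 60399.7, Elovl6, a fatty acid elongase, at 241, 3240.2 and 1029, and Acly, ATP citrate lyase, at 283, 1979.7 and 708. The Chlorella array thus stood above nonswimming and below swimming for each of these. Adipocyte genes had 15 of 26 between, with a median of -0.84 to the swimming and 0.15 to the nonswimming array. Adipoq, adiponectin, stood at 4703, 11057 and 4179.7. Ucp1, the uncoupling protein of brown fat, was between as well, at 231, 4398 and 683.

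**Figure D4:**
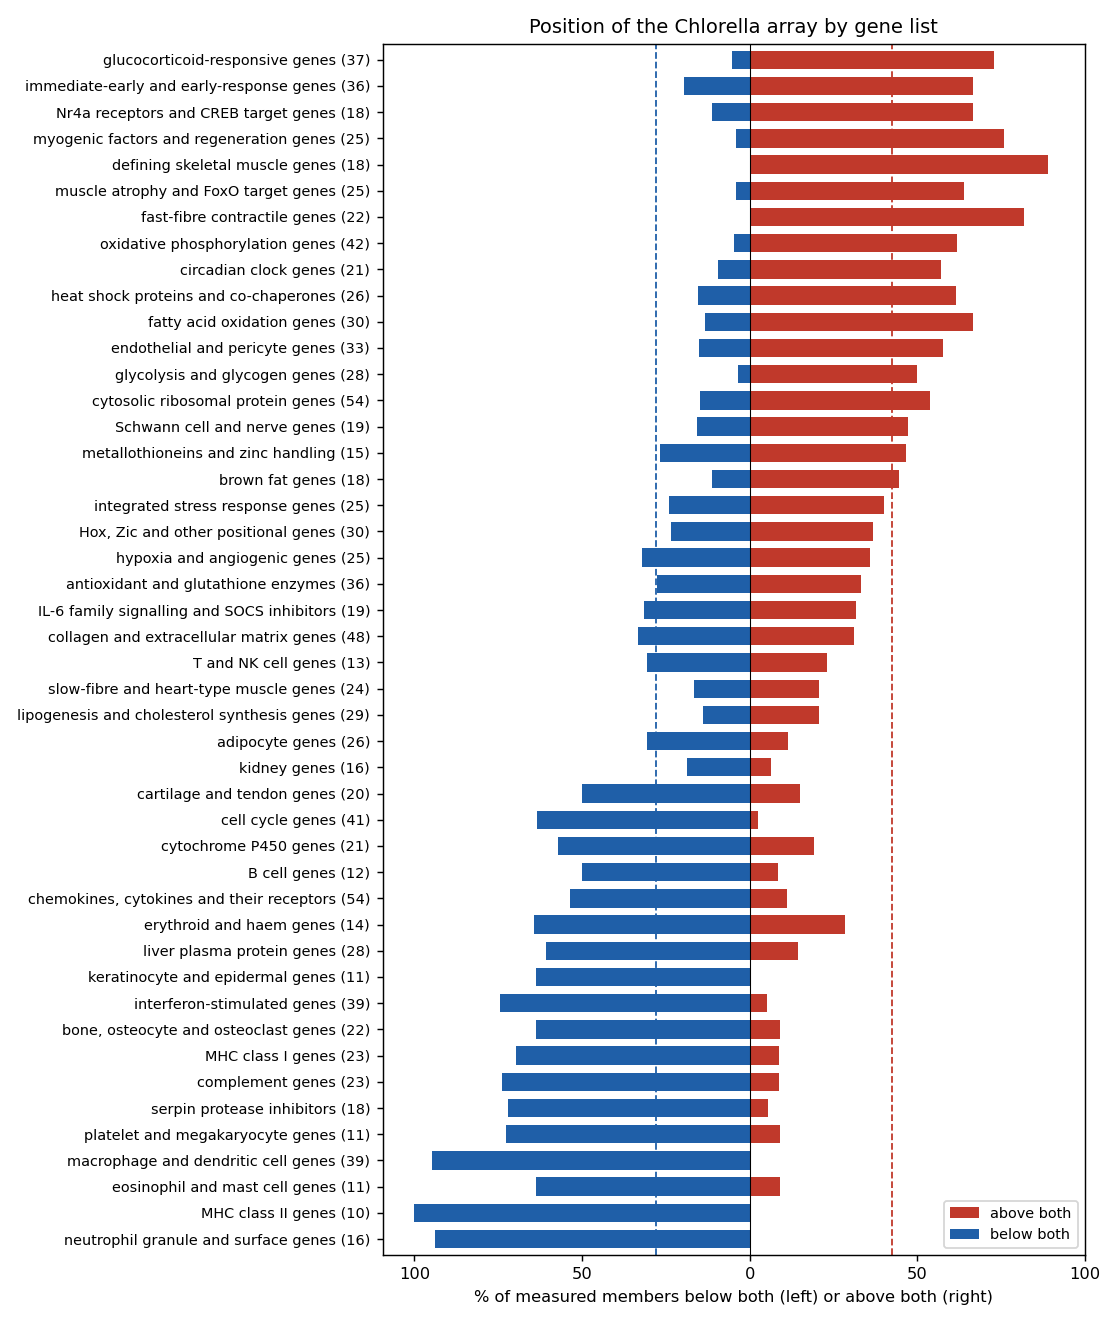
Percent of the measured members of each of 46 gene lists that lay above both normal-food arrays (right, red) or below both (left, blue), with the number measured in brackets and dashed lines at the shares of all genes, 42.3% above and 27.8% below. MHC class II genes are at 100% below. Lipogenesis genes have short bars on both sides and adipocyte genes a short bar on the right only, with most members of both lists between the normal-food arrays.

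Other probes of the called genes give a look at values the call did not use, on the same 3 arrays. Among the higher genes 14 had several measured probes, with 17 probes besides the one that represents the gene. Of these 17, 12 had both ratios above 0 and 7 were past 2-fold, with a median smaller ratio of 0.71. Among the lower genes 12 had several probes, and of their 12 other probes 9 had both ratios below 0 and 8 were past 2-fold, with a median of -1.18. The genes with a disagreeing probe were Gsdme, Mug2, Fndc4 and Map3k20 among the higher and Ptpn6, Timeless and Angpt4 among the lower. All of these but Gsdme were under 2-fold with normexp. Of the 99 lower genes, 79 had a scaled signal under 50 with Chlorella, so the sizes of their ratios rest on dim spots.

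Genes that were well above background on 1 side only have a bound in place of a ratio, in which the dim side counts as no lower than the faintest signal its array measured above background. On both normal-food arrays and not with Chlorella were 386 genes, of which 45 differed at least 2-fold and 7 at least 4-fold. Ly6d, a marker of early B cells and of some epithelia, stood at 60.4 and 85.1 on the normal-food arrays and was at least 8.44-fold lower with Chlorella. Rtp1, a receptor transporter of olfactory neurons, was at least 4.69-fold lower, Rhd at least 4.23-fold and Ear6, an eosinophil ribonuclease, at least 4.12-fold. Only with Chlorella were 262 genes well above background, 112 of them at least 2-fold and 31 at least 4-fold higher. Dnajc5b, a DnaJ protein known from testis, was at least 25.6-fold higher with a signal of 157, the olfactory receptor genes Olfr832 and Olfr374 at least 9.93-fold and at least 8.14-fold, F8, coagulation factor VIII, at least 9.06-fold and 2610318N02Rik at least 5.64-fold. Slc7a11, the cystine transporter of the antioxidant response and a list member named after its values were seen, was at least 4.52-fold higher. Each bound rests on 1 probe per gene, which was not well above background on 1 side. The genes well above background only with Chlorella rest on 1 array.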

How the data were processed

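Per the labels' protocols, each array received Cy3-labelled RNA pooled from 10 mice. The authors deposited scanner output made, per the submitters' processing notes, with Agilent Feature Extraction 9.5, whose processed signal is a background-subtracted intensity. The authors also deposited a table of log2 values centred per probe on an unstated value, which was used as an alternative only. No source used here gives a genome build for the probes.

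Control and flagged spots were left out and spots of a probe averaged. Each array's log2 processed signal was reduced by its 75th percentile, and probes well above background on all 3 arrays were kept. Names came from the array's accessions (22948 probes), its symbols (6658) or older symbols (3109) found in RefSeq, and the other 8454 probes kept the file's name. The error of a log2 ratio combines the software's signal errors, and spots of 1 probe repeated on an array differed by an SD of 0.058 to 0.066 on the log2 scale. The number of arrays limits the precision.

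Named were the 12 genes furthest from both arrays on each side that had a RefSeq symbol and agreeing probes, up to 3 called genes per list, 3 of a list with at least 10% called, the 5 largest bounds each way and the defining muscle genes. Genes beyond this rule were chosen after their values were seen. The members, the 46 lists and the rules were chosen with earlier results of these data known. Python 3.11.15, numpy 2.4.6, pandas 2.3.3, matplotlib 3.10.9, R 4.3.3 and limma 3.58.1 were used, and the code was tested on simulated data. Alternatives were other scalings, normexp with an offset of 50, other filters on dim probes, the mean over a gene's probes, the authors' table and a 1.5-fold line.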

Additional observations from a re-analysis of the deposited data

How the results depend on the processing

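No paired analysis was possible because each group has 1 array, and for the same reason no replicate could be left out. The counts of 90 genes above and 99 below both normal-food arrays were 107 and 91 with median centring, 93 and 96 with quantile normalization, 81 and 110 with cyclic loess, and 63 and 83 of 12148 genes in the authors' deposited table. They were 28 and 14 with normexp, 698 and 374 with no filter on dim probes over 27665 genes, 40 and 19 with a signal of at least 50 on all arrays, and 371 and 394 at 1.5-fold. Requiring both ratios to lie beyond the limit of the scanner error left 90 and 99. Among the genes named by rule the largest error of a ratio was 0.36, for Trim10. Even there the limit lay under the 2-fold line that a call already needs. That filter thus had little room to remove a call, and the unchanged counts are no check on them. The median of neutrophil genes, -1.54, was -0.90 with normexp and -0.90 in the authors' deposited table, and with the signal minimum too few members were left for one; the eosinophil and mast cell median, -0.63, ran from -0.87 to -0.17, the platelet median, -0.49, from -0.53 to -0.05, and the bone median, -0.22, from -0.34 to 0.00. Median centring moved the median log2 ratio of all genes to the swimming array from 0.07 to 0.21. Of 932 values of named genes and list medians under the alternatives, 879 moved by less than the scanner error and 53 by more. Part of the 879 could not move. The filters on dim probes leave a gene's value as it was, and so does the mean for a gene with 1 measured probe. Among these 932 values no gene called at 2-fold and no list median turned sign, though a list median of 0.00 could not do so. The muscle genes Mylpf (0.16) and Tnni2 (0.17) were at -0.002 and -0.02 with cyclic loess, and Tnnt3 (0.16) at -0.02 with quantile normalization. Of the called genes outside these values, Mill2 (-1.02) was at 0.01 with normexp, and Angpt4 (-1.01) and Rnase6 (-1.13) were at 0.00. With all listed genes taken out, which was added after seeing the data, 69 and 66 genes were called. Dim spots limit the lower genes most, since 79 of 99 had a scaled signal under 50 with Chlorella.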
